A study of Caenorhabditis elegans with 8 samples.

Results

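Cytochrome P450 genes of *Caenorhabditis elegans* were followed by RNA sequencing in whole, very young adult hermaphrodites. They were chosen by name: 60 sequence names of *cyp* genes were listed, from families 13, 14, 25, 29, 31, 32, 33, 34 and 35 together with *cyp-36A1* (C34B7.3), and 59 of them were among the 45461 features of the expression table. F42A5.4 was not analysed here. RefSeq gives a *cyp* symbol for all 59. Families 13 and 33 had 13 genes each, family 35 had 8, family 34 had 6, families 14 and 25 had 5 each, families 29 and 31 had 3 each, family 32 had 2, and family 36 was represented by *cyp-36A1* alone.

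Of the 4 strains, 2 were double mutants, *cyp-36A1(lf); egl-9(lf)* with alleles gk824636 and sa307, and *egl-9(lf) hif-1(lf)* with alleles sa307 and ia4. The others were the single mutant *egl-9(lf)*, with allele sa307, and the wild type N2. All 3 mutant strains carried the same *egl-9* allele. Each strain was a single line with 2 biological replicates, each a pool of about 150 animals, so line and genotype cannot be told apart. All strains were grown at 22.5 °C. No strain carried *cyp-36A1(lf)* or *hif-1(lf)* without *egl-9(lf)*.

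Cytochrome P450 enzymes are heme proteins that insert oxygen into small molecules. They oxidise foreign compounds, which is the first step of detoxification, and they also act on fatty acids and sterols to make signaling molecules. In *C. elegans* many P450 genes, the cyp-35 group among them, are expressed in the intestine and are induced by foreign chemicals. *egl-9* encodes the oxygen-dependent prolyl hydroxylase that marks the transcription factor HIF-1 for degradation, so that HIF-1 is active in *egl-9(lf)* mutants even in air. *cyp-36A1* was studied for its part in the effects of *egl-9* loss on behavior, stress resistance and gene expression. The comparisons give the transcript level of each P450 gene when *egl-9* is lost, when *hif-1* is lost as well, and when *cyp-36A1* is lost as well.

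Library totals lay between 11925027 and 22269111 expected counts, both in the wild type. Transcripts of *hif-1* were at 45.2 and 43.5 CPM (counts scaled to library size) in *egl-9(lf) hif-1(lf)*, against 161 and 143 CPM in *egl-9(lf)*, a log2 fold change of -1.78. The *egl-9* transcript was not lower in *egl-9(lf)*, at 87.6 and 101 CPM against 27.1 and 25.9 CPM in the wild type, so its level is no check of the *egl-9* label. The counts are RSEM estimates, in which a read that matches several genes is split between them. Of the 59 P450 genes, 35 had a count that was not whole in at least 1 library, and *cyp-25A1*, *cyp-25A3*, *cyp-25A4*, the 3 *cyp-31A* genes, *cyp-33C3*, *cyp-33C4*, *cyp-33C5*, *cyp-33C7* and *cyp-36A1* did so in all 8 libraries. Values of these genes rest in part on how shared reads were divided.

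The animals were whole, and some markers of single tissues moved with the strains. In *egl-9(lf)* against the wild type, 0 of 4 intestinal, 4 hypodermal, 3 muscle, 4 neuronal and 3 germ-line markers were called different by edgeR. The intestinal markers summed to 398 to 471 FPKM (expected counts scaled to gene length and library size) in *egl-9(lf)* and 518 to 562 FPKM in the wild type, and most of this sum was *act-5*, at 288 and 359 FPKM against 426 and 466 FPKM. The intestinal gene *ifb-2* lay the other way, at 92.8 and 93.1 FPKM in *egl-9(lf)* against 72.6 and 75.9 FPKM in the wild type. All 3 yolk protein genes, which the adult intestine transcribes, were called lower in *egl-9(lf)*, with sums of 8262 to 9463 FPKM against 12642 to 13887 FPKM in the wild type. All 3 sperm markers were lower, at 15.8 to 18.3 FPKM in sum against 43.1 to 44.1 FPKM, and 3 of 4 oocyte markers were higher, at 1646 to 1658 FPKM against 1151 to 1256 FPKM. In *cyp-36A1(lf); egl-9(lf)*, the sums were 465 to 471 FPKM for intestinal markers, 10886 to 11947 FPKM for yolk genes, 19.2 to 21.9 FPKM for sperm markers and 1560 to 1657 FPKM for oocyte markers. In *egl-9(lf) hif-1(lf)* they were 471 to 672, 11733 to 11885, 37.3 to 56.6 and 1167 to 1453 FPKM for the same lists. The hypodermal gene *rol-6* had 49 counts in replicate 1 of *egl-9(lf)* and 0 to 2 counts in each of the other 7 libraries. The part of these shifts in the P450 results was not tested. In whole animals, fewer cells of a type and less RNA per cell cannot be told apart.

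Among the 59 genes, the family 31 genes *cyp-31A2* and *cyp-31A3* had the highest transcript levels, and many members were barely transcribed. Compared per length, as FPKM averaged over the 8 libraries, *cyp-31A2* (H02I12.8) was the highest at 56.45 FPKM, followed by *cyp-31A3* at 36.6 FPKM. These near-identical genes are needed to form the lipid-rich barrier of the eggshell. The third family 31 gene among them, *cyp-31A1*, which RefSeq annotates as a pseudogene, was at 8.48 FPKM. A further family 31 gene outside the list, *cyp-31A5*, averaged 47.6 FPKM, above *cyp-31A3*. It is not part of the family sums given here. The intestinal gene *cyp-35A2* averaged 14.9 FPKM, *cyp-36A1* 9.90 FPKM and *cyp-14A5* 9.63 FPKM, but these averages pool strains that differed. *cyp-36A1* was at 17.7 and 32.6 FPKM in *egl-9(lf)* against 3.28 and 5.08 FPKM in the wild type, and *cyp-35A2* at 11.03 and 7.38 FPKM in *egl-9(lf)* against 34.3 and 21.3 FPKM in the wild type. The highest members of the other families were *cyp-13A2* (7.84 FPKM), *cyp-34A8* (7.002 FPKM), *cyp-25A2* (6.33 FPKM), *cyp-33C9* (5.27 FPKM), *cyp-29A2* (2.54 FPKM) and *cyp-32A1* (2.31 FPKM). At the other end, *cyp-35A1* had no count in any library, and 23 genes had counts but stayed below a mean of 1 CPM in every strain. The remaining 35 genes reached 1 CPM in at least 1 strain.

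Summed over all 59 genes, P450 transcript was at 198 and 194 FPKM in *cyp-36A1(lf); egl-9(lf)*, 247 and 242 FPKM in *egl-9(lf) hif-1(lf)*, 236 and 247 FPKM in *egl-9(lf)*, and 254 and 240 FPKM in the wild type. The lowest sums were those of both *cyp-36A1(lf); egl-9(lf)* libraries, which did not overlap any other strain. These sums include *cyp-36A1* itself. Without it they were 196 and 183 FPKM in *cyp-36A1(lf); egl-9(lf)*, 244 and 238 FPKM in *egl-9(lf) hif-1(lf)*, 219 and 214 FPKM in *egl-9(lf)*, and 251 and 235 FPKM in the wild type. Both *egl-9(lf)* libraries then lay below both wild-type libraries, and those of *cyp-36A1(lf); egl-9(lf)* were still the lowest. Family 31 alone gave 108 and 108 FPKM in *cyp-36A1(lf); egl-9(lf)*, 103 and 93.4 FPKM in *egl-9(lf) hif-1(lf)*, 112 and 112 FPKM in *egl-9(lf)*, and 86.6 and 89.9 FPKM in the wild type. Family 35 was at 14.6 and 8.06 FPKM in *cyp-36A1(lf); egl-9(lf)*, 27.3 and 27.0 FPKM in *egl-9(lf) hif-1(lf)*, 14.3 and 11.5 FPKM in *egl-9(lf)*, and 54.6 and 34.6 FPKM in the wild type. Family 35 was thus lowest in the 2 strains with *egl-9(lf)* and an intact *hif-1* gene, and the wild-type replicates differed between themselves. Family 34 was at 7.24 and 6.38 FPKM in *cyp-36A1(lf); egl-9(lf)*, 16 and 16.4 FPKM in *egl-9(lf) hif-1(lf)*, 8.74 and 8.18 FPKM in *egl-9(lf)*, and 18.1 and 16.9 FPKM in the wild type. Family 33 was low in a single strain by these sums, at 18.5 and 18.8 FPKM in *cyp-36A1(lf); egl-9(lf)*, 31.1 and 35.6 FPKM in *egl-9(lf) hif-1(lf)*, 30.01 and 28.8 FPKM in *egl-9(lf)*, and 30.95 and 30.7 FPKM in the wild type. These sums are descriptions with no test.

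**Figure D1:**
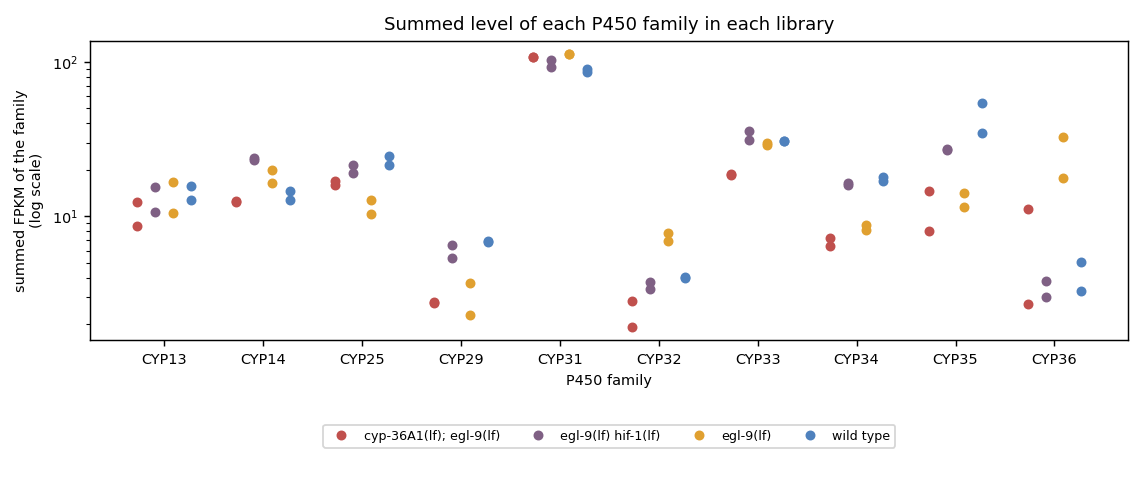
Summed FPKM of each P450 family (log scale) in each of the 8 libraries, coloured by strain; each point is 1 library. Family 31 was the highest in every library, family 36 (*cyp-36A1*) stood highest in the *egl-9(lf)* libraries, and families 34 and 35 were low in *cyp-36A1(lf); egl-9(lf)* and in *egl-9(lf)*.

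The transcript of *cyp-36A1* was high in *egl-9(lf)* mutants and low in the other strains, apart from 1 library. It was at 4.78 and 19.4 CPM in *cyp-36A1(lf); egl-9(lf)*, 5.22 and 6.88 CPM in *egl-9(lf) hif-1(lf)*, 29.4 and 55.0 CPM in *egl-9(lf)*, and 5.74 and 8.92 CPM in the wild type. Both *egl-9(lf)* libraries lay above the other 6 libraries. The gene rose 5.94-fold in *egl-9(lf)* over the wild type, a log2 fold change of 2.57 ± 0.49 (SE, adjusted p = 0.00437 by the edgeR quasi-likelihood test, Benjamini-Hochberg adjusted over 21372 features). It fell by 2.78 ± 0.49 on the log2 scale in *egl-9(lf) hif-1(lf)* against *egl-9(lf)* (edgeR adjusted p = 0.00232). In *egl-9(lf) hif-1(lf)* against the wild type the log2 fold change was -0.21 (edgeR adjusted p = 1).

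In *cyp-36A1(lf); egl-9(lf)* against *egl-9(lf)*, *cyp-36A1* had a log2 fold change of -1.83 ± 0.46 and missed the threshold (edgeR adjusted p = 0.0860; default edgeR settings called it, and DESeq2 did not, at an adjusted p of 0.408). The 2 libraries of the double mutant differed from each other: without replicate 2 of that strain the log2 fold change was -3.13 (edgeR adjusted p = 0.0103), and without replicate 1 of *egl-9(lf)* it was -2.18 (edgeR adjusted p = 0.0407). With the replicate numbers as a block it was -1.92 (edgeR adjusted p = 5.5e-04). The rise in *egl-9(lf)* over the wild type was not called without replicate 1 of the wild type, at a log2 fold change of 2.23 (edgeR adjusted p = 0.0975). Replicate 2 was the higher of the 2 *cyp-36A1* libraries in every strain.

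The annotation places the neighboring gene *figo-1* (C34B7.2) so that it overlaps *cyp-36A1*, and the expected counts of both genes were not whole. Their sum was whole, within 0.025, in 6 of the 8 libraries. *figo-1* was at 69.0 and 78.1 CPM in *cyp-36A1(lf); egl-9(lf)*, 71.7 and 64.5 CPM in *egl-9(lf) hif-1(lf)*, 83.4 and 79.3 CPM in *egl-9(lf)*, and 63.0 and 67.6 CPM in the wild type. Its log2 fold change in *egl-9(lf)* over the wild type was 0.32 (edgeR adjusted p = 0.112).

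Loss of *egl-9* moved P450 genes in both directions, and the genes that fell outnumbered those that rose, as was so over all features. Of the 58 genes tested, 5 were called higher and 13 lower in *egl-9(lf)* than in the wild type, against 4.97% of all 21372 features called higher and 8.31% called lower. In percent, 8.62% of the P450 genes were higher and 22.4% lower. Without *cyp-36A1*, 4 of 57 genes (7.02%) were higher, closer to the share of all features, and 13 (22.8%) were lower. The median log2 fold change of the P450 genes was -0.44, and that of all features was 0. The genes that rose were single members of families 13, 14, 32 and 33 and *cyp-36A1*, whereas 4 of the 7 tested family 35 genes, 2 each of families 14, 25, 29 and 34, and 1 of family 33 fell. In family 31 no gene was called.

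*cyp-36A1* had the largest rise among the 5. Next came *cyp-13B1* (F02C12.5), which stood at 0.206 and 0.311 CPM in *cyp-36A1(lf); egl-9(lf)*, 1.13 and 0.975 CPM in *egl-9(lf) hif-1(lf)*, 3.86 and 4.96 CPM in *egl-9(lf)*, and 1.22 and 0.849 CPM in the wild type. In *egl-9(lf)* over the wild type its log2 fold change was 2.00 ± 0.31 (edgeR adjusted p = 0.00125). Its *egl-9(lf)* libraries lay above, and its *cyp-36A1(lf); egl-9(lf)* libraries below, all others. The other 12 members of its family were not called.

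*cyp-14A5* (F08F3.7) was at 11.8 and 13.1 CPM in *cyp-36A1(lf); egl-9(lf)*, 16.5 and 20.7 CPM in *egl-9(lf) hif-1(lf)*, 19.3 and 26.1 CPM in *egl-9(lf)*, and 6.23 and 8.92 CPM in the wild type. It rose by 1.62 ± 0.22 on the log2 scale in *egl-9(lf)* over the wild type (edgeR adjusted p = 5.1e-04). All 6 mutant libraries lay above both wild-type libraries, which was not so for any other gene of this group.

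*cyp-33C8* (R08F11.3) was at 0.925 and 0.932 CPM in *cyp-36A1(lf); egl-9(lf)*, 5.41 and 5.90 CPM in *egl-9(lf) hif-1(lf)*, 8.98 and 9.17 CPM in *egl-9(lf)*, and 3.16 and 3.91 CPM in the wild type. Its log2 fold change in *egl-9(lf)* over the wild type was 1.39 ± 0.21 (edgeR adjusted p = 8.5e-04), and the 4 strains did not overlap. *cyp-32B1* (Y5H2B.5) was at 2.78 and 1.49 CPM in *cyp-36A1(lf); egl-9(lf)*, 2.26 and 2.60 CPM in *egl-9(lf) hif-1(lf)*, 7.66 and 3.83 CPM in *egl-9(lf)*, and 2.76 and 2.46 CPM in the wild type. It passed narrowly, with a log2 fold change of 1.15 ± 0.35 in *egl-9(lf)* over the wild type (edgeR adjusted p = 0.0495), but not by DESeq2 (adjusted p = 0.0880), and its *egl-9(lf)* replicates were far apart.

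**Figure D2:**
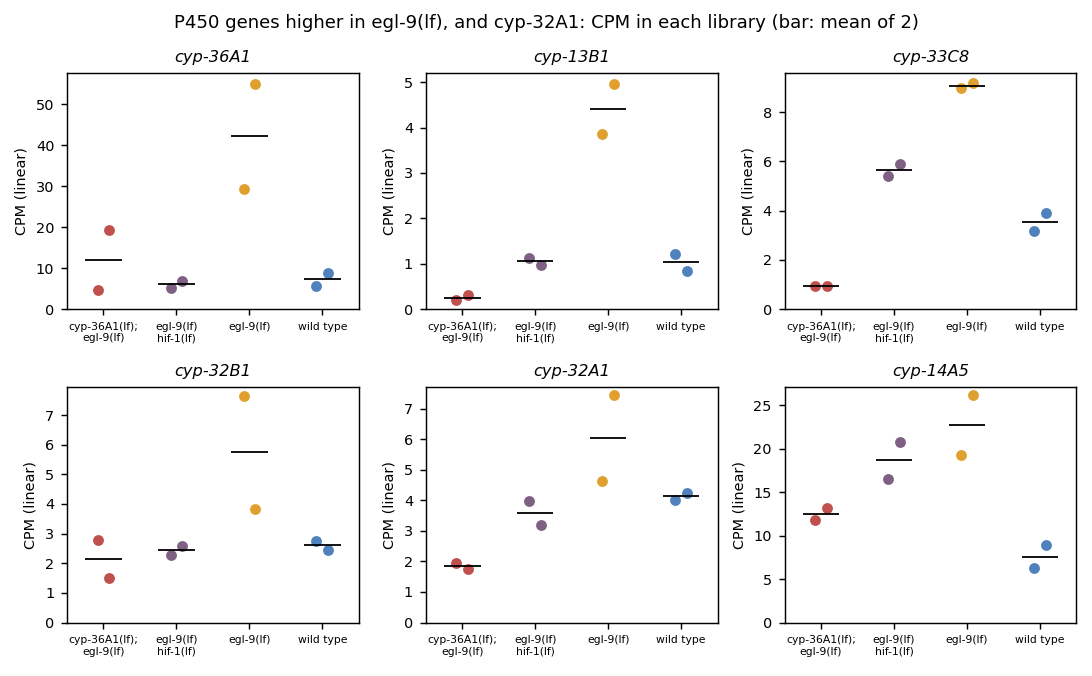
Level in CPM (linear axis) of the 5 P450 genes called higher in *egl-9(lf)* and of *cyp-32A1*; each point is 1 library, the bar is the mean of the 2 libraries, and strains run from the double mutants on the left to the wild type on the right. *cyp-33C8* and *cyp-13B1* were lowest in *cyp-36A1(lf); egl-9(lf)*, below the wild type, while *cyp-14A5* was above the wild type in all mutant libraries.

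Of the genes that fell, the 3 with the largest changes were of family 35. This family includes genes known for strong induction by foreign chemicals and, for *cyp-35A* genes, for an effect on intestinal fat stores. *cyp-35A5* (K07C6.5) was at 0.771 and 0.932 CPM in *cyp-36A1(lf); egl-9(lf)*, 4.59 and 5.15 CPM in *egl-9(lf) hif-1(lf)*, 0.723 and 0.977 CPM in *egl-9(lf)*, and 5.24 and 4.25 CPM in the wild type. It fell by 2.52 ± 0.32 on the log2 scale in *egl-9(lf)* (edgeR adjusted p = 3.1e-04). Its libraries formed 2 separate levels, low in *cyp-36A1(lf); egl-9(lf)* and *egl-9(lf)* and high in the other strains.

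*cyp-35C1* (C06B3.3) was at 4.47 and 3.85 CPM in *cyp-36A1(lf); egl-9(lf)*, 10.9 and 13.4 CPM in *egl-9(lf) hif-1(lf)*, 2.89 and 4.28 CPM in *egl-9(lf)*, and 21.3 and 14.1 CPM in the wild type. It fell by 2.35 ± 0.26 on the log2 scale in *egl-9(lf)* (edgeR adjusted p = 1.3e-04). *cyp-35A2*, the highest member of the family, was at 17.4 and 7.89 CPM in *cyp-36A1(lf); egl-9(lf)*, 26.5 and 23.1 CPM in *egl-9(lf) hif-1(lf)*, 17.1 and 11.6 CPM in *egl-9(lf)*, and 56.0 and 35 CPM in the wild type. It fell by 1.67 ± 0.31 in *egl-9(lf)* (edgeR adjusted p = 0.00384). For this gene both *egl-9(lf) hif-1(lf)* libraries lay between those of *egl-9(lf)* and those of the wild type. *cyp-35A3* fell by 2.31 (edgeR adjusted p = 0.00932), at 0.844 and 0.601 CPM in *egl-9(lf)* against 4.61 and 2.21 CPM in the wild type.

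Families 14 and 25 also contributed genes that fell. *cyp-14A2* (K09A11.3) was at 2.72 and 1.99 CPM in *cyp-36A1(lf); egl-9(lf)*, 14.3 and 10.6 CPM in *egl-9(lf) hif-1(lf)*, 2.59 and 3.08 CPM in *egl-9(lf)*, and 8.45 and 8.07 CPM in the wild type. Its log2 fold change in *egl-9(lf)* was -1.56 ± 0.25 (edgeR adjusted p = 0.00163), opposite in sign to that of *cyp-14A5*. Its neighbor *cyp-14A1* was at 4.83 and 4.35 CPM in *cyp-36A1(lf); egl-9(lf)*, 4.72 and 6.82 CPM in *egl-9(lf) hif-1(lf)*, 2.41 and 1.43 CPM in *egl-9(lf)*, and 4.70 and 5.69 CPM in the wild type. It fell by 1.37 on the log2 scale in *egl-9(lf)* (edgeR adjusted p = 0.0120).

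*cyp-25A1* (C36A4.1) was at 3.44 and 4.35 CPM in *cyp-36A1(lf); egl-9(lf)*, 6.41 and 8.45 CPM in *egl-9(lf) hif-1(lf)*, 1.03 and 3.38 CPM in *egl-9(lf)*, and 6.55 and 9.004 CPM in the wild type. In *egl-9(lf)* its log2 fold change was -1.85 ± 0.39 (edgeR adjusted p = 0.00755), and that of *cyp-25A3* was -1.10 (edgeR adjusted p = 0.0370). *cyp-25A1*, *cyp-25A2* and *cyp-25A3* stand in a row on the chromosome and had counts that were not whole, and *cyp-25A2* between them missed the threshold at -1.02 (edgeR adjusted p = 0.0555, or 0.00383 with the replicate numbers as a block). The block also called *cyp-34A5*, at -1.34 (edgeR adjusted p = 0.0371 with the block and 0.0553 without).

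*cyp-34A8* (B0213.14) was at 4.27 and 3.98 CPM in *cyp-36A1(lf); egl-9(lf)*, 14.1 and 20.3 CPM in *egl-9(lf) hif-1(lf)*, 8.14 and 8.79 CPM in *egl-9(lf)*, and 17.7 and 16.3 CPM in the wild type. It fell by 1.02 ± 0.20 on the log2 scale in *egl-9(lf)* (edgeR adjusted p = 0.00473), and its *cyp-36A1(lf); egl-9(lf)* libraries were lower still. *cyp-29A2* fell by 1.28 (edgeR adjusted p = 0.00544) and *cyp-29A3*, a family 29 gene like it, by 1.47 (edgeR adjusted p = 0.0154). *cyp-34A9* fell by 1.13 (edgeR adjusted p = 0.0246) and *cyp-33C3* by 1.03 (edgeR adjusted p = 0.00645).

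The calls of *cyp-13B1*, *cyp-14A5*, *cyp-33C8*, *cyp-14A2*, *cyp-35A5* and *cyp-35C1* in *egl-9(lf)* against the wild type held with each of the 8 libraries left out, and that of *cyp-32B1* held with only 1 of them left out. Without replicate 1 of the wild type 3 genes were called higher and 4 lower, and without its replicate 2, 8 were called lower, while all 18 genes kept their direction.

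**Figure D3:**
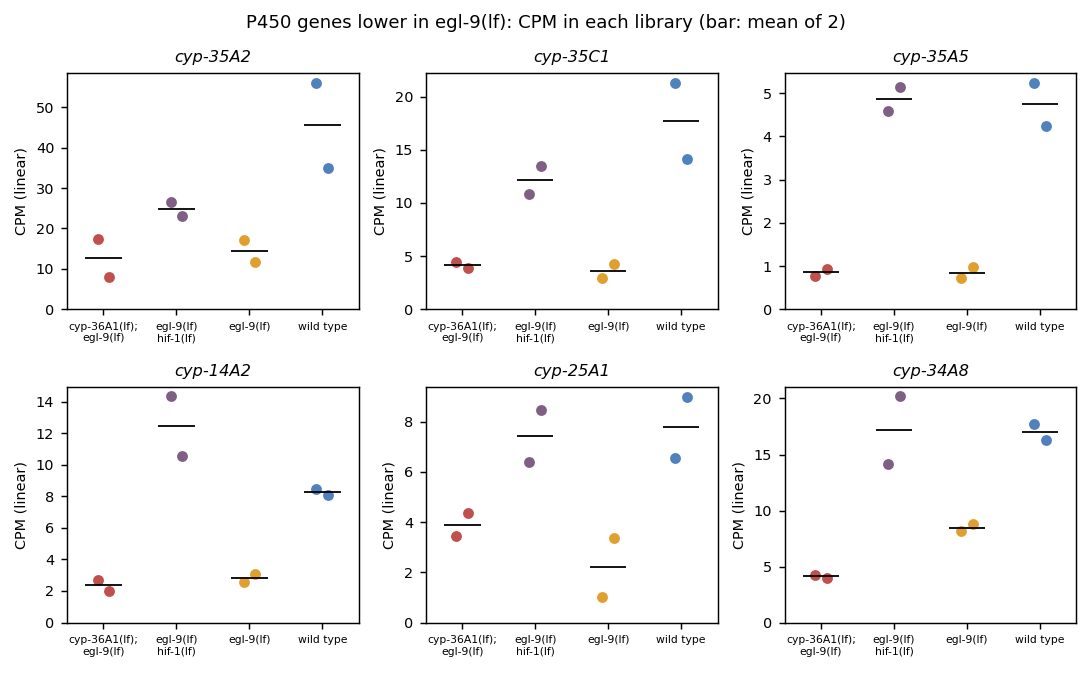
Level in CPM (linear axis) of 6 P450 genes called lower in *egl-9(lf)*; each point is 1 library and the bar is the mean of the 2 libraries of a strain. *cyp-35A5* and *cyp-14A2* were low in *cyp-36A1(lf); egl-9(lf)* and *egl-9(lf)* and near or above the wild type in *egl-9(lf) hif-1(lf)*, whereas *cyp-35A2* stayed below the wild type in both *egl-9(lf) hif-1(lf)* libraries.

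With *hif-1* lost as well as *egl-9*, 9 P450 genes were called higher and 4 lower than in *egl-9(lf)*. The background was 8.86% of all features called higher and 4.25% called lower, and the P450 genes had 15.5% higher and 6.90% lower, with a median log2 fold change of 0.49 against 0 for all features. Without *cyp-36A1*, 3 of 57 genes (5.26%) were lower, near that background. This comparison shares the *egl-9(lf)* libraries with the previous one, so opposite changes in the 2 are not independent. The 9 genes that rose were *cyp-35A5* (2.53 ± 0.32, edgeR adjusted p = 2.5e-04), *cyp-14A2* (2.14 ± 0.24, edgeR adjusted p = 1.3e-04), *cyp-25A1* (1.83), *cyp-35C1* (1.79), *cyp-14A1* (1.56), *cyp-29A3* (1.46), *cyp-33C3* (1.204), *cyp-34A8* (1.03) and *cyp-29A2* (0.92, edgeR adjusted p = 0.0347). The 4 that fell were *cyp-36A1*, *cyp-13B1* (-2.05 ± 0.31, edgeR adjusted p = 9.2e-04), *cyp-32B1* (-1.26, edgeR adjusted p = 0.0328) and *cyp-33C8* (-0.68, edgeR adjusted p = 0.0328).

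Several genes did not follow. The log2 fold change of *cyp-14A5* in *egl-9(lf) hif-1(lf)* against *egl-9(lf)* was -0.27 (edgeR adjusted p = 0.475), and that of *cyp-35A2* was 0.77 (edgeR adjusted p = 0.160). With the replicate block, which pairs libraries of the same number, 14 genes were called higher in place of 9, *cyp-35A2* (edgeR adjusted p = 0.00825) and *cyp-25A3* (edgeR adjusted p = 0.00736) among them. The calls of *cyp-25A1*, *cyp-29A2*, *cyp-29A3*, *cyp-32B1* and *cyp-33C8* were each lost with at least 1 library left out, those of *cyp-25A1* and *cyp-29A3* without either the second *egl-9(lf) hif-1(lf)* library or the first *egl-9(lf)* library, and that of *cyp-33C8* with 7 of 8. DESeq2 did not make those of *cyp-29A2* (adjusted p = 0.0987), *cyp-32B1* (0.0544) and *cyp-33C8* (0.183). Without either *egl-9(lf) hif-1(lf)* library, or without either wild-type library, 2 genes were called lower.

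Against the wild type, *egl-9(lf) hif-1(lf)* mutants had 1 P450 gene called higher and 0 called lower in edgeR, with a background of 0.0842% higher and 0.131% lower. At an unadjusted p under 0.05 there were 6 of 58 P450 genes in either direction, where 3.37% of all features passed, and the default edgeR settings and DESeq2 called 2 and 1 in all. The gene was *cyp-14A5*, at 16.5 and 20.7 CPM in *egl-9(lf) hif-1(lf)* against 6.23 and 8.92 CPM in the wild type, a log2 fold change of 1.35 ± 0.22 (edgeR adjusted p = 0.0299). The call was lost when either library of *egl-9(lf) hif-1(lf)*, of *cyp-36A1(lf); egl-9(lf)* or of the wild type was left out (edgeR adjusted p up to 1), with a log2 fold change of 1.07 to 1.58. The family 35 genes *cyp-35A2* and *cyp-35A3* had log2 fold changes of -0.90 and -1.12 in this comparison, and neither was called (edgeR adjusted p = 1).

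**Figure D4:**
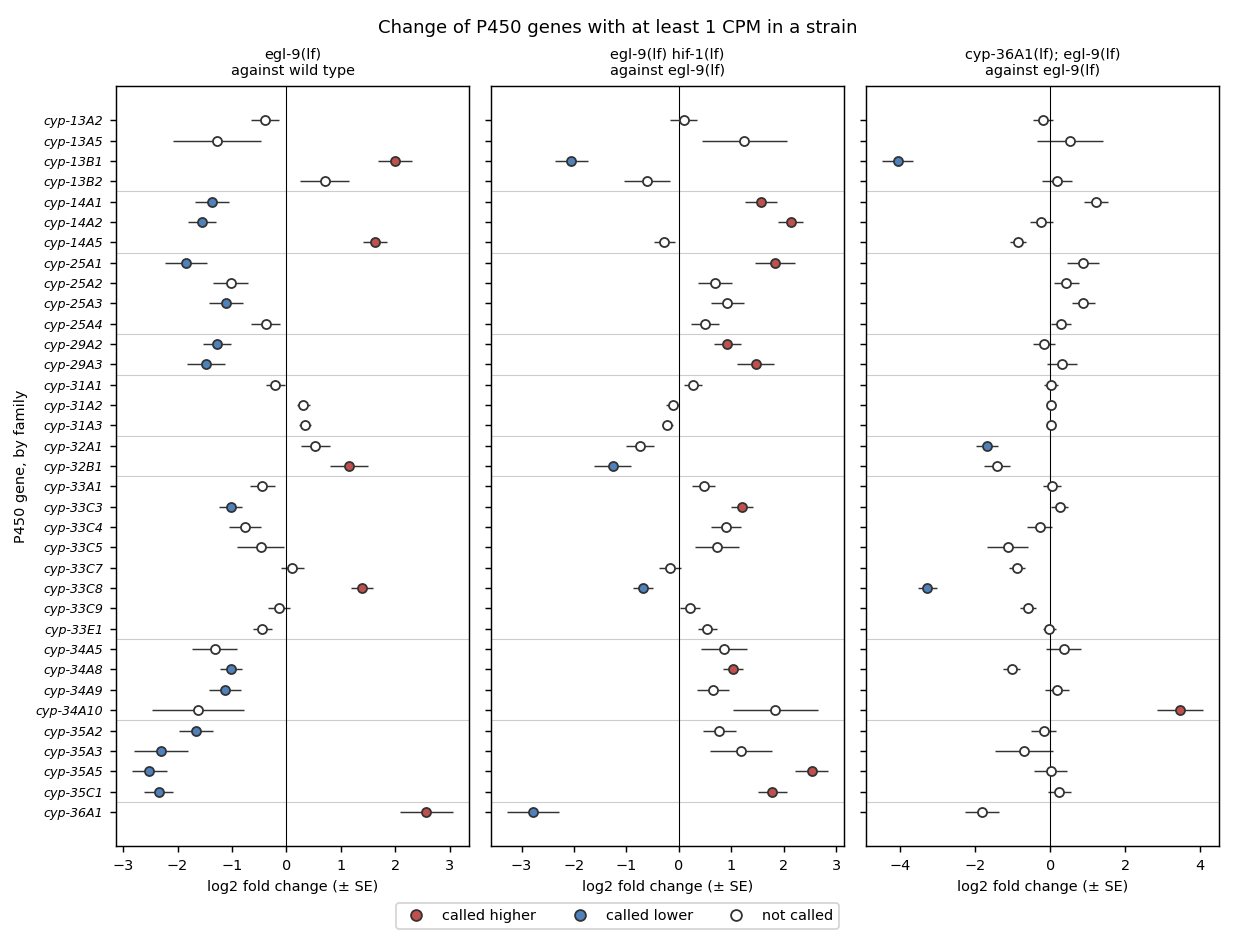
Log2 fold change (points, with SE bars) of the 35 P450 genes that reached 1 CPM in at least 1 strain, ordered by family, in 3 comparisons; filled points passed an adjusted p of 0.05. The middle panel shares the *egl-9(lf)* libraries with both others. The 4 family 35 genes lay left of 0 in *egl-9(lf)* over the wild type. In *cyp-36A1(lf); egl-9(lf)* against *egl-9(lf)* they lay between -0.70 and 0.24 with no call, and *cyp-13B1* and *cyp-33C8* were farthest to the left.

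With *cyp-36A1* lost as well as *egl-9*, few P450 genes were called different from *egl-9(lf)*. *cyp-33C8*, *cyp-13B1* and *cyp-32A1* fell and *cyp-34A10* rose. These were 3 genes lower and 1 higher of 58, or 5.17% and 1.72%, where 0.903% of all features were called lower and 0.664% higher. The median log2 fold change of the P450 genes was -0.12 and that of all features was 0. *cyp-33C8* fell by 3.28 ± 0.26 on the log2 scale (edgeR adjusted p = 2.0e-05) and *cyp-13B1* by 4.07 ± 0.42 (edgeR adjusted p = 1.7e-04), and both calls held with each library left out.

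*cyp-32A1* (C26F1.2) was at 1.95 and 1.74 CPM in *cyp-36A1(lf); egl-9(lf)*, 3.96 and 3.19 CPM in *egl-9(lf) hif-1(lf)*, 4.64 and 7.44 CPM in *egl-9(lf)*, and 4.02 and 4.25 CPM in the wild type. In *cyp-36A1(lf); egl-9(lf)* against *egl-9(lf)* it fell by 1.68 ± 0.29 (edgeR adjusted p = 0.0105). The gene was not called in *egl-9(lf)* against the wild type. Its call was lost without either *cyp-36A1(lf); egl-9(lf)* library or without replicate 2 of *egl-9(lf)* (edgeR adjusted p up to 0.122).

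*cyp-34A10* (B0213.16) was at 1.13 and 1.24 CPM in *cyp-36A1(lf); egl-9(lf)*, 0.377 and 0.379 CPM in *egl-9(lf) hif-1(lf)*, 0.121 and 0.0751 CPM in *egl-9(lf)*, and 0.316 and 0.340 CPM in the wild type. Both *cyp-36A1(lf); egl-9(lf)* libraries lay above the other 6. The counts were small, 42 over both *cyp-36A1(lf); egl-9(lf)* libraries and 3 over both *egl-9(lf)* libraries. Their ratio after scaling was 11.8, with an exact 95% interval of 3.76 to 59.4 that covers counting error only (edgeR adjusted p = 0.00969). Without either *egl-9(lf)* library the call was lost (edgeR adjusted p up to 0.117), and DESeq2 did not make it (adjusted p = 0.131).

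Of the 13 genes that fell in *egl-9(lf)*, 0 were called higher when *cyp-36A1* was lost as well, although *cyp-25A3* was with the replicate block, and *cyp-14A1* and *cyp-25A3* were with default edgeR settings (adjusted p = 0.00271 and 0.00835). Against *egl-9(lf)*, the family 35 genes among the 13 had log2 fold changes of 0.01 (*cyp-35A5*), 0.24 (*cyp-35C1*), -0.18 (*cyp-35A2*) and -0.70 (*cyp-35A3*, edgeR adjusted p = 0.910), and *cyp-14A1* had the largest of the 13, at 1.23 ± 0.31 (edgeR adjusted p = 0.0974). *cyp-34A8* was at -1.03 ± 0.23 (edgeR adjusted p = 0.0511). DESeq2 called 5 genes lower, *cyp-14A5* (adjusted p = 0.0287) and *cyp-34A8* (0.0131) in addition. With the replicate block 7 genes were called lower and 2 higher in place of 3 and 1. The added genes were *cyp-36A1*, *cyp-32B1* (-1.42, edgeR adjusted p = 0.0174), *cyp-14A5* (-0.85, edgeR adjusted p = 0.00505) and *cyp-34A8* (-1.03, edgeR adjusted p = 0.0233), which were lower, and *cyp-25A3* (0.91, edgeR adjusted p = 0.0434), which was higher.

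The 2 double mutants were then compared directly, a comparison that uses no library of *egl-9(lf)* or the wild type as a group and was added after the data were seen. The estimate of spread still came from all 8 libraries. In *cyp-36A1(lf); egl-9(lf)* against *egl-9(lf) hif-1(lf)*, 12 P450 genes were called lower and 1 higher, with a background of 8.25% lower and 3.95% higher. The median log2 fold change of the P450 genes was -0.58. Of the 13 genes called lower in *egl-9(lf)* against the wild type, 7 were called lower here and 0 higher. All 13 had negative log2 fold changes, as had 4 of the 5 genes called higher in *egl-9(lf)* and 44 of all 58 P450 genes. These 7 were *cyp-35A5* (-2.52 ± 0.30, edgeR adjusted p = 2.6e-04), *cyp-14A2* (-2.37 ± 0.24, edgeR adjusted p = 6.2e-05), *cyp-34A8* (-2.06), *cyp-35C1* (-1.54), *cyp-29A3* (-1.16), *cyp-29A2* (-1.10) and *cyp-33C3* (-0.95). Of the 5 genes called higher in *egl-9(lf)*, *cyp-33C8* (-2.60 ± 0.27, edgeR adjusted p = 9.0e-05) and *cyp-13B1* (-2.02, edgeR adjusted p = 0.0337) were called lower here and 0 were called higher.

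The other 3 genes called lower, named after their values were seen, were *cyp-33C4*, *cyp-33C5* and *cyp-33C9*, and the gene that was higher was *cyp-34A10* (1.62, edgeR adjusted p = 0.0285). *cyp-33C5* was at 0.565 and 0.622 CPM in *cyp-36A1(lf); egl-9(lf)* against 1.38 and 2.87 CPM in *egl-9(lf) hif-1(lf)*. The calls of *cyp-14A2*, *cyp-33C8*, *cyp-34A8*, *cyp-35A5* and *cyp-35C1* held with each library left out, while that of *cyp-34A10* was lost with 7 of 8 libraries left out in turn (edgeR adjusted p up to 0.130), that of *cyp-13B1* with 6 of 8 (up to 0.216) and that of *cyp-29A3* with 5 of 8 (up to 0.280). Without replicate 2 of either double mutant 5 genes were called lower. DESeq2 did not call *cyp-29A3* (adjusted p = 0.0856), *cyp-33C4* (0.101) or *cyp-34A10* (0.322). With the replicate block 18 genes were lower, with *cyp-14A5*, *cyp-25A1*, *cyp-33C7*, *cyp-33E1*, *cyp-35A2* and *cyp-35A3* added (edgeR adjusted p = 0.00202 to 0.0417).

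Against the wild type, *cyp-36A1(lf); egl-9(lf)* mutants had 16 P450 genes called lower and 1 higher, or 27.6% and 1.72%, where 7.47% of all features were lower and 4.72% higher. The median log2 fold change of the P450 genes was -0.72. Of the 9 *cyp-33C* genes, 5 were among those lower: *cyp-33C8* fell by 1.89 ± 0.30 (edgeR adjusted p = 0.00202), *cyp-33C4* by 1.04, *cyp-33C7* by 0.78, *cyp-33C3* by 0.77 and *cyp-33C9* by 0.72. The same 4 family 35 genes that were low in *egl-9(lf)* had log2 fold changes of -3.01 (*cyp-35A3*), -2.51 (*cyp-35A5*), -2.11 (*cyp-35C1*) and -1.85 (*cyp-35A2*), and *cyp-34A8* was at -2.05 ± 0.21 (edgeR adjusted p = 8.1e-05). *cyp-13B1* was at -2.07 (edgeR adjusted p = 0.0301) and *cyp-32A1* at -1.14 (edgeR adjusted p = 0.0309), so that both lay below the wild type as well as below *egl-9(lf)*.

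The gene called higher was *cyp-34A10* (1.84, edgeR adjusted p = 0.0201). In all, 6 of the 16 lower calls held with each library left out, those of *cyp-14A2*, *cyp-29A2*, *cyp-33C8*, *cyp-34A8*, *cyp-35A5* and *cyp-35C1*. In place of 17 genes in either direction, 8 were called without replicate 1 of *cyp-36A1(lf); egl-9(lf)*, 8 without its replicate 2, 6 without replicate 1 of the wild type and 8 without its replicate 2. DESeq2 called 11, with 4 of the *cyp-33C* genes (all but *cyp-33C8*), *cyp-29A3*, *cyp-34A9* and *cyp-34A10* no longer called and *cyp-14A5* added, which was higher (adjusted p = 0.0310). The replicate block called 21, with *cyp-14A5* and *cyp-31A3* added among the higher and *cyp-25A1* and *cyp-33C5* among the lower.

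Many of these genes lie side by side. By RefSeq gene order, 37 of the 59 genes fell into 10 clusters with at most 2 other protein-coding genes between neighbors, the largest being 8 *cyp-13A* genes, 6 *cyp-34A* genes, the 5 genes *cyp-33C3* to *cyp-33C7*, and the 4 genes *cyp-14A1* to *cyp-14A4*. Genes of a cluster changed alike in some comparisons and not in others. In *egl-9(lf)* against the wild type, all 6 *cyp-34A* genes had negative log2 fold changes, as had 36 of the 58 P450 genes tested. Of the 6, 2 were called lower, where 8.31% of all features were called lower. Between *cyp-36A1(lf); egl-9(lf)* and *egl-9(lf)*, 4 of the 6 had positive and 2 negative log2 fold changes, with -1.03 for *cyp-34A8* and 3.46 for *cyp-34A10*. The value of *cyp-34A8* missed the edgeR threshold, though DESeq2 called it. That of *cyp-34A10* rested on 3 counts over both *egl-9(lf)* libraries and was not called by DESeq2 (adjusted p = 0.131). *cyp-34A8* had counts that were not whole in 7 libraries, and those of *cyp-34A10* were whole in all. In the *cyp-13A* cluster *cyp-13A2* was at 8.11 to 15.8 CPM in all 8 libraries and 6 of the other 7 genes stayed below 1 CPM in every strain. *cyp-13A5* followed the replicate number in every strain, at 4.06 and 0.559 CPM in *cyp-36A1(lf); egl-9(lf)*, 6.16 and 2.11 CPM in *egl-9(lf) hif-1(lf)*, 2.53 and 0.676 CPM in *egl-9(lf)*, and 5.74 and 1.61 CPM in the wild type, replicate 1 first. With the replicate block its log2 fold change in *egl-9(lf)* over the wild type was -1.19 (edgeR adjusted p = 0.0183), and without the block it was -1.28 (edgeR adjusted p = 0.361).

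Among the 23 genes below 1 CPM, *cyp-13A12* is known for a role downstream of HIF-1 in the behavioral response of *C. elegans* to the return of oxygen, and is named here for that role. It was at 0.308 and 0.311 CPM in *cyp-36A1(lf); egl-9(lf)*, 0.566 and 0.542 CPM in *egl-9(lf) hif-1(lf)*, 0 and 0.1502 CPM in *egl-9(lf)*, and 0.316 and 0.0849 CPM in the wild type. With 19 counts in *egl-9(lf) hif-1(lf)* and 2 in *egl-9(lf)*, the ratio after scaling was 8.27, with an exact 95% interval of 1.99 to 73.2 from counting alone, and the gene was not called (edgeR adjusted p = 0.0863).

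Other genes that bear on P450 function were taken from lists of known genes. Of 21 further *cyp* genes outside the 60, 20 could be tested, and 1 was called higher and 4 lower in *egl-9(lf)* than in the wild type. Of all features, 4.97% were called higher and 8.31% lower, so 1 of 20 higher was near the background. *cyp-42A1* was at 12.7 and 15.2 CPM in *egl-9(lf)* against 2.84 and 3.06 CPM in the wild type (log2 fold change 2.24). *cyp-35D1*, a further family 35 gene, was at 0.241 and 0.0751 CPM in *egl-9(lf)* against 1.81 and 1.95 CPM in the wild type (-3.42). In *egl-9(lf) hif-1(lf)* against *egl-9(lf)* 3 were higher and 1 lower, with 3.77 for *cyp-35D1* and -2.50 for *cyp-42A1*. In *cyp-36A1(lf); egl-9(lf)* against *egl-9(lf)* 0 of 20 were called in either direction by edgeR. Only 0.664% of all features were called higher there and 0.903% lower, so 0 of 20 was near the background. The shares of each comparison also apply to the short lists that follow.

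Of 3 genes that pass electrons to P450 enzymes, the cytochrome b5 gene *cytb-5.1* rose in *egl-9(lf)* over the wild type (0.87, edgeR adjusted p = 0.0376), and the other two, *emb-8* for P450 reductase among them, were not called. Of 6 heme transport genes, 1 was higher in *egl-9(lf)*, *hrg-3* (2.10), which encodes a protein that carries heme from the intestine. Of 6 genes for synthesis of or response to dafachronic acid, a steroid hormone made by the P450 enzyme DAF-9, 1 changed: *dhs-16*, a steroid dehydrogenase, fell to counts of 1 and 0 in *egl-9(lf)*, against 83 and 58 in the wild type. With *cyp-36A1* lost as well it was called higher than in *egl-9(lf)*, with counts of 25 and 41. Of 12 regulators, 4 were higher, the mutated gene *egl-9* among them, and 1 lower in *egl-9(lf)* than in the wild type. They included *rhy-1*, a known HIF-1 target that acts with *egl-9* (5.67), *nhr-46*, a nuclear hormone receptor, at 48.6 and 49.6 CPM in *egl-9(lf)* against 36.9 and 34.997 CPM in the wild type (0.45), and *nhr-176*, a nuclear hormone receptor known to control *cyp-35D1*, at 4.099 and 3.31 CPM against 7.36 and 8.24 CPM (-1.05). In *egl-9(lf) hif-1(lf)* against *egl-9(lf)*, 1 regulator was higher and 5 lower, 1 heme transport gene was higher and 2 lower, *dhs-16* was higher (6.74), and 0 of the 3 electron donors were called. The 5 lower regulators included *hif-1* and *egl-9*, both mutated in *egl-9(lf) hif-1(lf)*. None of the 12 regulators, 6 heme transport genes or 3 electron donors was called by edgeR in *cyp-36A1(lf); egl-9(lf)* against *egl-9(lf)*. With 0.664% of all features called higher and 0.903% lower, this too was near the background.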

How the data were processed

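Polyadenylated RNA from whole young adults of 4 *C. elegans* strains, 2 replicates each, was sequenced in single-end reads. The authors deposited expected counts per gene, made with RSEM 1.2.15 and Bowtie 1.0.1 on the ce10 genome, and FPKM values, the deposited expected counts divided by gene length and library total. BWA, SAMtools and bedtools are also listed in the submitters' processing notes. Expected counts were rounded, since 36.1% of those above 0 were not whole. Samples were grouped by title, and no column of per-sample values was left unmapped.

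The P450 genes and the other gene lists were chosen with earlier results of these data known. The fit took all 21372 features whose rounded count was above 0 somewhere, and was made in edgeR 4.0.16 (R 4.3.3) with TMM scaling, estimateDisp, glmQLFit (legacy=FALSE) and glmQLFTest, with a mean per strain. Benjamini-Hochberg adjustment ran over all features and genes were called at an adjusted p under 0.05, with no fold minimum. The prior degrees of freedom were 7.805 with this setting, and infinite with default options. CPM values are counts scaled to TMM library sizes, used within a gene. FPKM was used between genes and for sums over genes. Some genes and all sums are also given by strain in FPKM, which has no TMM scaling. The smallest p of an exact permutation test of 2 against 2 libraries is 0.333, so none was run. The procedure was tested on simulated data with independent libraries and changes only in genes with higher counts. That test does not cover genes with few counts or replicates that deviate together.

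Replicate numbers come from the titles. Same-numbered libraries deviated together from their strain means, with a correlation of 0.121 to 0.320 over 14311 genes in each of 6 strain pairs. The main fit had no term for this pairing, so its calls and p-values leave it out. The replicate block, which uses the pairing, was an alternative because the authors' methods name none. Other alternatives were default quasi-dispersion, DESeq2 1.42.0, RLE scaling, filterByExpr, and each library left out.

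Genes named were *cyp-36A1*, the P450 genes called in the first 3 comparisons (at most 10 in each direction, with a mean of at least 1 CPM in a strain), the gene of each family with the highest FPKM, and called genes of other lists (at most 3 per list and direction). Other named genes were chosen after their values were seen. Library totals limit precision: 3 counts over both libraries of a strain correspond to 0.0844 to 0.100 CPM. Coordinates are not given because the annotation used here (WBcel235) differs from ce10, and promoter motifs, which were planned, were not analysed here.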

Additional observations from a re-analysis of the deposited data

How the results depend on the processing

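With each of the 8 libraries left out in turn, the P450 genes called ranged from 3 to 5 (higher) and 4 to 15 (lower) in *egl-9(lf)* against the wild type, 6 to 10 and 2 to 4 in *egl-9(lf) hif-1(lf)* against *egl-9(lf)*, 0 to 1 and 2 to 4 in *cyp-36A1(lf); egl-9(lf)* against *egl-9(lf)*, 0 to 1 and 5 to 14 in *cyp-36A1(lf); egl-9(lf)* against *egl-9(lf) hif-1(lf)*, and, in both directions together, 0 to 1 in *egl-9(lf) hif-1(lf)* and 6 to 21 in *cyp-36A1(lf); egl-9(lf)* against the wild type. The log2 fold change of *cyp-36A1* ranged over 2.06 to 2.90, -3.13 to -2.27 and -3.13 to -1.08 in the first 3 of these comparisons. A strain left with 1 library was assumed to vary like the others.

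With the replicate block, 14 genes in place of 9 were called higher for *egl-9(lf) hif-1(lf)* against *egl-9(lf)*, 2 in place of 1 higher and 7 in place of 3 lower for *cyp-36A1(lf); egl-9(lf)* against *egl-9(lf)*, and *cyp-36A1* was called there at -1.92. The block moved no other of these counts by over 1.5 times. Default quasi-dispersion gave 14 higher in the first of these comparisons, 3 higher and 8 lower in the second with *cyp-36A1* called at -1.81, and 2 in place of 1 for *egl-9(lf) hif-1(lf)* over the wild type. DESeq2 gave 2 in place of 4 lower for *egl-9(lf) hif-1(lf)* against *egl-9(lf)*, 0 higher and 5 lower for *cyp-36A1(lf); egl-9(lf)* against *egl-9(lf)*, 11 in place of 17 for *cyp-36A1(lf); egl-9(lf)* over the wild type, and 0 in place of 1 higher between the double mutants. RLE scaling and filterByExpr moved no count by over 1.5 times, and no alternative turned a called direction round. The cause of these differences was not tested. How large a change of genes under 1 CPM would be found was not measured.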
